A study of Mus musculus with 12 samples.

Results

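The genes described here encode the 5 kainate receptor subunits (Grik1 to Grik5) and the 2 Neto auxiliary subunits (Neto1 and Neto2). They were chosen by gene name, and all 7 were found among the 23951 rows of each table. RNA was sequenced from dissected cortex of C57BL/6 mice in 12 libraries, 4 per genotype at Mir137: wildtype (WT), the heterozygote miR-137/+ (Het) and miR-137 KO (KO). The sources used here do not give the type of the mutant allele or the animals' age and sex. RPKM (reads scaled to transcript length and to mapped reads) may here include further scaling between genotypes, which is not described. Each of the 3 pairwise tables gives 1 RPKM value per genotype, pooled over its 4 libraries. A value therefore carries no SD, and the depth is unknown. The labels do not tie the libraries to separate animals, and the authors' p-values may then reflect only technical spread among libraries. Genes "rose" or "fell" here where the authors' deposited table gave an adjusted p under 0.05. A log2 fold is the change in log2(RPKM + 1), a scale that understates the change of low genes.

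Kainate receptors are tetrameric glutamate-gated cation channels that act both after and before the synaptic cleft. GluK1, GluK2 and GluK3 (from Grik1, Grik2 and Grik3) can form channels by themselves. GluK4 and GluK5 (from Grik4 and Grik5) bind kainate with high affinity and reach the surface as working channels only in company with the first set. Neto1 and Neto2 are single-pass membrane proteins with CUB domains that bind the receptors and slow their kinetics, and Neto1 also associates with NMDA receptors. In the forebrain Grik1 is known from interneurons, Grik4 and Neto1 from hippocampal CA3 neurons, and Grik5 from most neurons.

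The microRNA of the Mir137 gene, mutant in Het and KO, acts through its seed, bases 2 to 8, so its sequence is printed with the seed in capitals. The mature form from RefSeq on GRCm38.p6 lies at chr3:118433901-118433923 on the plus strand.
mmu-miR-137-3p: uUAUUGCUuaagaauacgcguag

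The longest GENCODE M21 3' UTR of each of the 7 genes was searched on the sense strand for AGCAATA (the match to the whole seed, called 8mer when an A follows) and for GCAATAA where the base before it does not extend the seed match. Matches of any kind were found in 3 of the 7 genes: 1 in Grik3, 1 in Grik4 and 2 in Neto1. No 8mer was found. Among 12232 genes of at least 1 RPKM in WT that have such a UTR, 16.2% held a match of any kind and 7.03% a 7-base seed match without the following A. The 3' UTRs searched ran from 304 nt in Grik1 to 6275 nt in Grik2, where the median over those 12232 genes was 1252.5 nt. The UTRs with a match had 6082 nt (Grik3), 2694 nt (Grik4) and 5819 nt (Neto1), all above that median. Those of Grik2 and Neto2 (3948 nt) were also above it and held none. The shares over all genes are not matched for UTR length, so 3 of 7 cannot be read as an excess. The Grik3 match begins 1500 nt after the stop codon, within chr4:125709583-125709605 on the plus strand, and the Grik4 match 1468 nt after it, within chr9:42519347-42519369 on the minus strand (both GRCm38, a later build than the mm9 of the tables). The sites are shown because these 2 subunit genes carry the seed match, which is in capitals.
Grik3: ccagggtgAGCAATAtgggttga
Grik4: tgggagtcAGCAATActttccta

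The Neto1 matches begin 604 and 793 nt after the stop codon of a 5819 nt UTR, the first of them GCAATAA and the second the seed match. Grik1, Grik2, Grik5 and Neto2 had no match in the UTR searched. A match is a string of letters and was not tested as a binding site.

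Before the members' values, some facts of the whole data set bear on them. Mir137 itself was listed at 0 RPKM in WT, Het and KO, so its row checks no genotype label. Cortical projection neuron markers were present in every genotype, among them the vesicular glutamate transporter Slc17a7 at 574, 484 and 393 RPKM in WT, Het and KO, and the transcription factor Tbr1 at 11.3, 16.6 and 14.1. The summed level of the 9 striatal projection neuron markers found was 66.3 RPKM in WT, 471 in Het and 473 in KO, with 9 of 9 higher in each mutant against WT. The 7 choroid plexus markers summed to 2069, 290 and 87.7 RPKM, with all 7 at lower values in each mutant and 6 of 7 past the test. None of these markers was at 0 in both genotypes of a table. Of all tested genes 4.00% were higher and 5.13% lower in Het against WT, and 6.88% and 7.72% in KO against WT. In bulk tissue, a change in cells of a type, in RNA per cell and in the tissue dissected cannot be told apart. This limit holds for every comparison of genotypes below.

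In WT cortex, Grik5 had by far the highest RPKM of the 7 genes and Grik3 the lowest. Grik5 stood at 76.6 RPKM in WT, 71.2 in Het and 80.7 in KO, above 91.6% of the 13421 genes of at least 1 RPKM in WT. Neto1 followed at 26.1 RPKM in WT, then Grik4 at 22.2, Neto2 at 17.7, Grik2 at 16.7, Grik1 at 8.68 and Grik3 at 6.36. The highest level was 12.0 times the lowest in WT, 14.1 times in Het and 10.4 times in KO. The order changed below Grik5: Neto1 was second in WT and Het and behind Neto2 and Grik2 in KO, and Grik1 took the lowest place from Grik3 in both mutants. Without a spread per genotype, neighbours in this order cannot be said to differ. The same genotype's value differed between its 2 tables by at most 0.697% for any of the 7 genes.

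**Figure D1:**
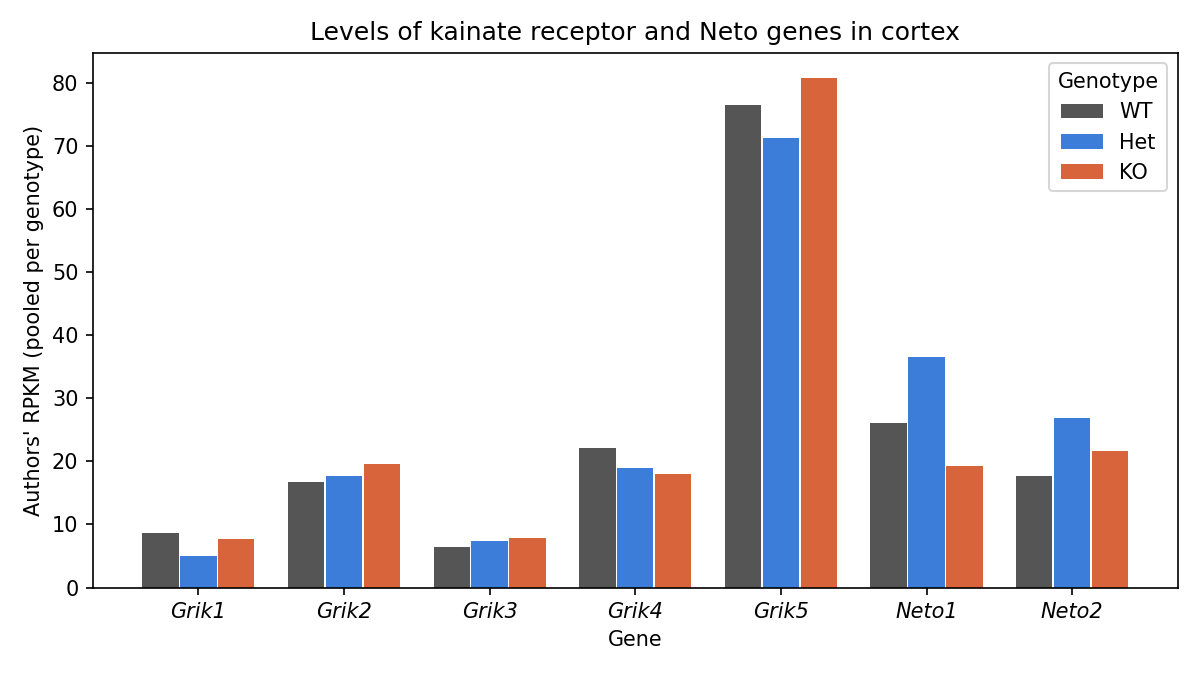
RPKM of the 7 genes (horizontal axis) in WT, Het and KO cortex, 1 bar per genotype holding the authors' pooled value, with no error bar, since 1 value has no spread. Grik5 stands above all others in each genotype, Neto1 and Neto2 are highest in Het, and Grik1 is lowest in Het.

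Heterozygous cortex differed from WT in both auxiliary subunits, which rose, and in 1 receptor subunit, Grik1, which fell. Thus 3 of the 7 genes were called, beside 9.13% of the 13561 genes tested with at least 1 RPKM. Of those tested genes 4.00% were higher in Het and 5.13% lower. The median log2 fold of the 7 genes was 0.08, and that of all tested genes 0.01.

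Neto2 showed the largest rise of the 7, from 17.7 RPKM in WT to 26.9 in Het, 1.52-fold. Its log2 fold was 0.57, and the authors' deposited table gave it an adjusted p of 0.00135. That is the lowest value in this comparison, shared by many genes, Grik1 among them, so it gives Neto2 no rank. Of all tested genes 1.98% had a higher log2 fold. Neto1 went from 26.1 to 36.6 RPKM, 1.41-fold higher, with a log2 fold of 0.48 (adjusted p 0.0176 in the authors' deposited table). At an adjusted p below 0.01, or with an absolute log2 fold of at least 0.5, the Neto1 call was lost and those of Neto2 and Grik1 were kept.

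Grik1, whose product GluK1 forms channels by itself, fell from 8.68 RPKM in WT to 5.06 in Het, 1.72-fold lower. Its log2 fold was -0.68 (adjusted p 0.00135 in the authors' deposited table), and 2.01% of tested genes had a lower one. The other channel-forming subunits did not pass the test. Grik2 was at 16.7 RPKM in WT and 17.7 in Het (log2 fold 0.08, adjusted p 0.819 in the authors' deposited table). Grik3 was at 6.36 and 7.33 RPKM (log2 fold 0.18, adjusted p 0.377 in the authors' deposited table). Neither high-affinity subunit passed: Grik4 stood at 22.2 and 19.0 RPKM (log2 fold -0.21, adjusted p 0.290 in the authors' deposited table). Grik5 stood at 76.6 and 71.2 RPKM (log2 fold -0.10, adjusted p 0.717 in the authors' deposited table).

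Markers of interneurons, cells known for Grik1, and of thalamus are given beside its fall. Of 8 interneuron markers 1 rose and 1 fell in Het, where 4.00% of all tested genes rose and 5.13% fell. The 8 summed to 594 RPKM in WT and 556 in Het, with a median log2 fold of -0.06. Somatostatin (Sst) was the one that fell, from 330 to 250 RPKM (the authors' deposited table: adjusted p 0.00841). Neuropeptide Y (Npy) rose from 88.7 to 130 RPKM (the authors' deposited table: adjusted p 0.00135). Of 7 thalamic markers 4 fell and none rose in Het, with sums of 144 RPKM in WT and 112 in Het. In KO, where Grik1 did not pass the test, 4 of the 7 also fell, beside 7.72% of all tested genes, with a sum of 114 RPKM. Between Het and KO, where Grik1 rose, the thalamic sum was 113 and 115 RPKM, with 1 of the 7 higher and 1 lower. Slc17a6 rose from 9.16 to 15.1 RPKM and Prkcd fell from 22.5 to 13.5 (adjusted p 0.00517 for each in the authors' deposited table). No interneuron marker passed there, with Sst at 251 RPKM in Het and 339 in KO (the authors' deposited table: adjusted p 0.0513). Of all tested genes 0.939% were higher in KO than in Het and 0.983% lower. No interneuron or thalamic marker was listed at 0, and the part of interneurons or of thalamic tissue in the Grik1 value was not tested.

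Knockout cortex differed from WT in a single one of the 7 genes. Neto1 fell from 26.1 RPKM in WT to 19.3 in KO, 1.35-fold lower, with a log2 fold of -0.42 (adjusted p 0.0381 in the authors' deposited table). Adjusting the authors' p over the 3 comparisons together ended that call, at an adjusted p of 0.0581, as did a threshold of 0.01 or a minimum absolute log2 fold of 0.5. The count of 1 in 7 stands beside 14.6% of 13532 tested genes called (6.88% higher and 7.72% lower), and so lies near the background. The median log2 fold of the 7 genes was 0.07, against 0.01 over all tested genes.

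A further 3 genes had an adjusted p just under 0.10 in KO. Neto2 was at 17.7 RPKM in WT and 21.6 in KO (log2 fold 0.27, adjusted p 0.0962 in the authors' deposited table). Grik3 was at 6.36 and 7.84 RPKM (log2 fold 0.26, adjusted p 0.0954 in the authors' deposited table). Grik4 was at 22.2 and 18.0 RPKM (log2 fold -0.29, adjusted p 0.0958 in the authors' deposited table). None passed the threshold. Grik2 stood at 16.7 and 19.6 RPKM (log2 fold 0.22, adjusted p 0.228 in the authors' deposited table). For Grik1 the KO value was 7.73 RPKM against 8.69 in WT (log2 fold -0.15, adjusted p 0.494 in the authors' deposited table). Grik5 was at 76.6 and 80.7 RPKM (log2 fold 0.07, adjusted p 0.759 in the authors' deposited table). None of the 5 receptor subunits was therefore called by the authors' test, and 2 of them had an unadjusted p below 0.05. The 3 genes with a miR-137 seed match in the 3' UTR lay on both sides of 0 in this comparison, with Grik3 at 0.26, Grik4 at -0.29 and Neto1 at -0.42 in log2 fold. So did the 4 without one, from -0.15 for Grik1 to 0.27 for Neto2.

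The direct comparison of KO with Het tests whether the 2 mutant genotypes differ. Neto1 and Grik1 did, in opposite directions, so that 2 of the 7 genes were called beside 1.92% of 13424 tested genes (0.939% higher and 0.983% lower in KO). This comparison uses the same Het and KO libraries as the comparisons with WT and is no separate evidence for them.

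Neto1 stood at 36.9 RPKM in Het and 19.4 in KO, 1.90-fold lower in KO. Its log2 fold was -0.89, and the authors' deposited table gave an adjusted p of 0.00517. That is the lowest value in KO against Het, shared by many genes, Grin2b and Grin3a among them, so it gives Neto1 no rank. Of tested genes 0.462% had a lower log2 fold. The WT level of Neto1 lay between those of the 2 mutants. Grik1 stood at 5.09 RPKM in Het and 7.78 in KO, 1.53-fold higher in KO, with a log2 fold of 0.53 (adjusted p 0.0242 in the authors' deposited table). Its KO level lay between Het and WT.

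The remaining 5 genes did not pass this test. Neto2 was at 27.0 RPKM in Het and 21.7 in KO (log2 fold -0.30, adjusted p 0.282 in the authors' deposited table). Its rise in Het is therefore not shown to differ from its value in KO. Grik2, Grik3, Grik4 and Grik5 had log2 folds from -0.08 to 0.17, with adjusted p from 0.773 to 0.964 in the authors' deposited table. Over the 7 genes the median was 0.09 and that over all tested genes 0.00.

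**Figure D2:**
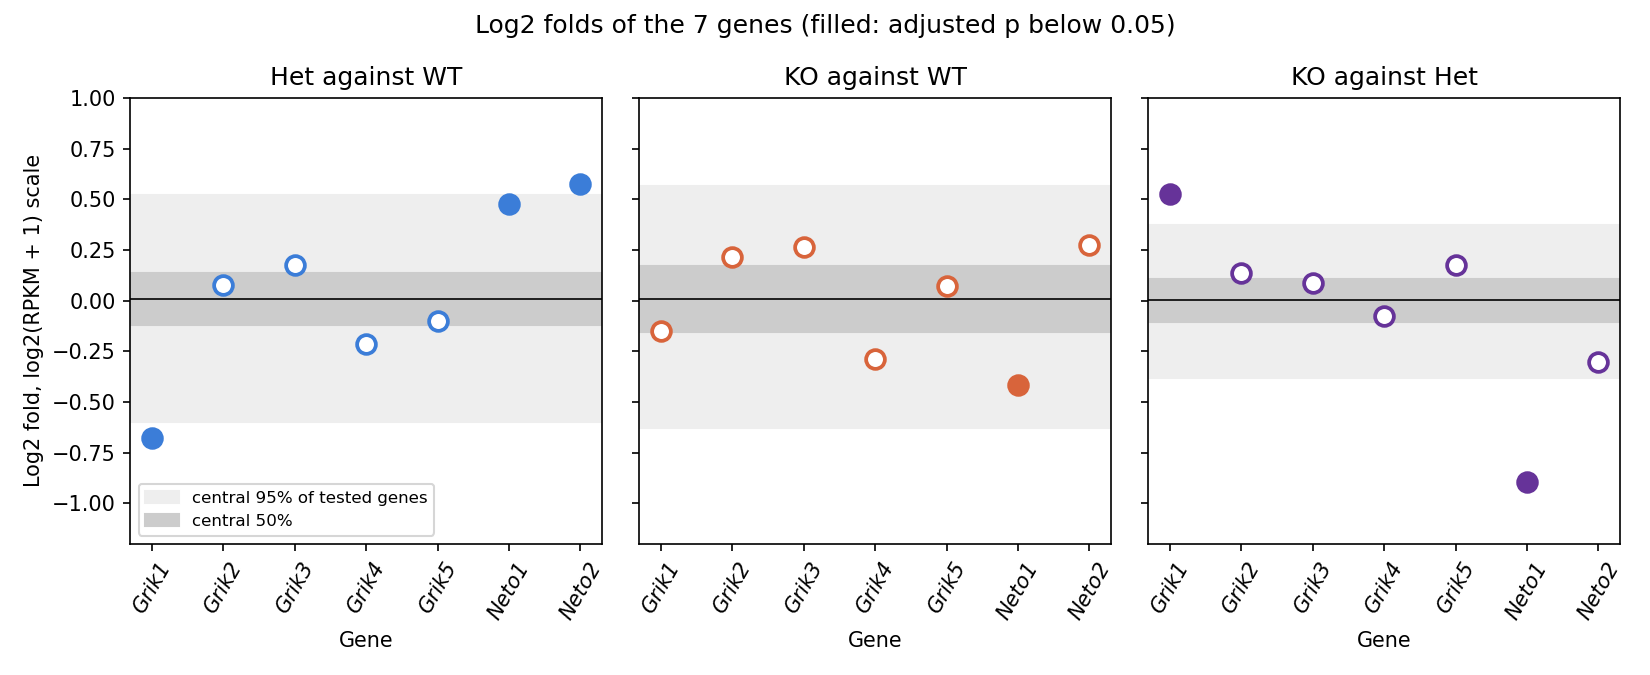
Log2 folds of the 7 genes on the log2(RPKM + 1) scale in the 3 comparisons, with filled points for an adjusted p below 0.05 in the authors' tables. The black line is the median of all tested genes and the bands hold their central 50% and 95%: Grik1 and Neto2 in Het against WT, and Grik1 and Neto1 in KO against Het, lie outside the wider band.

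Several hippocampal marker genes changed in the comparisons in which Neto1, a gene known from hippocampal CA3 neurons, changed. Of the 8 markers 3 (Bok, Dsp and Tdo2) rose in Het against WT and none fell. In KO against WT 3 others (Nptx1, Npy2r and Wfs1) fell and none rose, so no marker was called in both. In KO against Het 5 fell and none rose. Of all tested genes 4.00% were higher in Het against WT, 7.72% lower in KO against WT and 0.983% lower in KO against Het. The 8 markers summed to 236 RPKM in WT, 250 in Het and 166 in KO, and none was listed at 0. The Bcl-2 family gene Bok rose from 52.9 RPKM in WT to 80.1 in Het (adjusted p 0.00135 in the authors' deposited table). Nptx1, a neuronal pentraxin gene, fell from 79.8 RPKM in WT to 39.2 in KO (adjusted p 0.000987 in the authors' deposited table). Wfs1, an endoplasmic reticulum membrane gene, fell from 38.5 to 20.9 RPKM in KO (the authors' deposited table: adjusted p 0.000987). The members of the list differed in pattern: Nptx1 had a log2 fold of -0.28 and Wfs1 of -0.16 in Het against WT, where Neto1 rose, and neither passed the test. In KO against WT, where Neto1 fell, Bok, Dsp and Tdo2 had log2 folds of 0.03, 0.13 and -0.01, and none passed. Prox1 and C1ql2 passed in no comparison. Nptx1, Npy2r and Wfs1 are expressed in cortex too. Grik4, the other gene known from CA3, had log2 folds of -0.21 in Het and -0.29 in KO against WT. The part of hippocampal tissue in the Neto1 values was not tested.

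**Figure D3:**
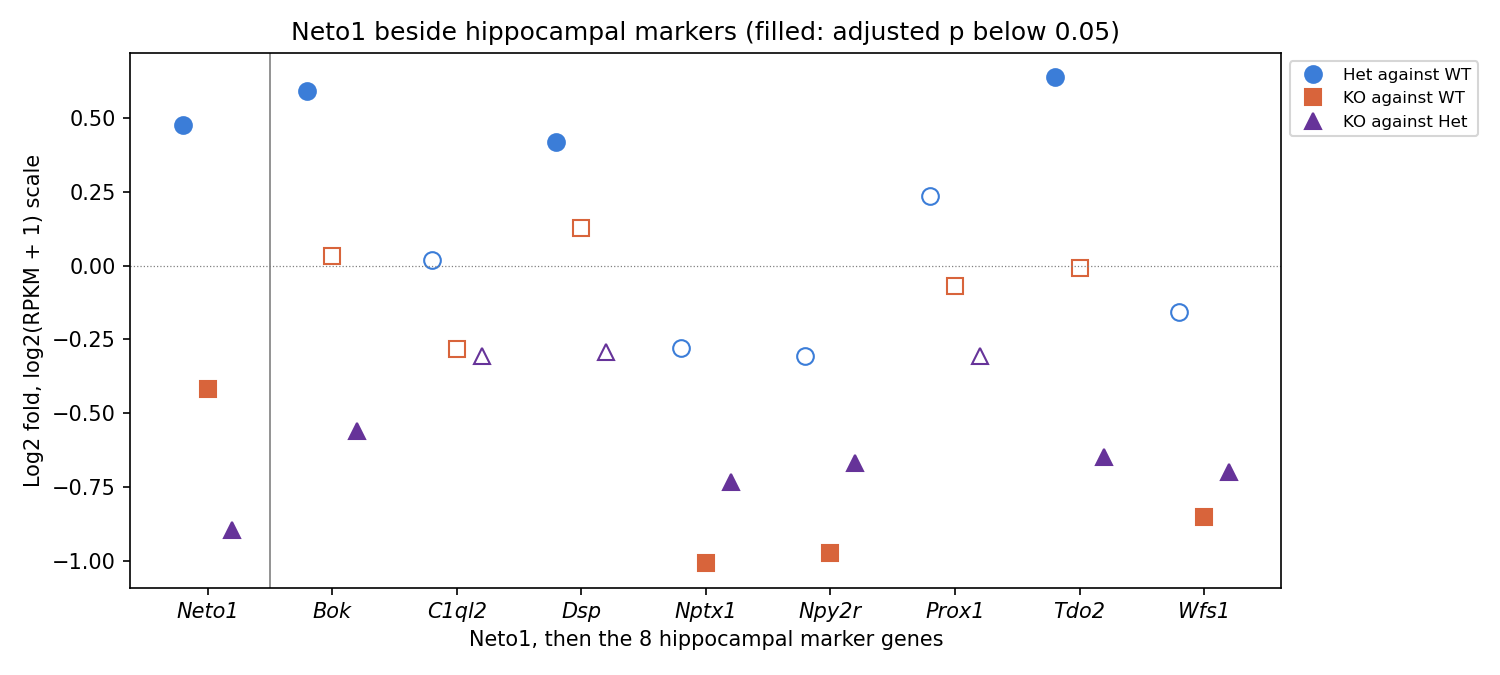
Log2 folds (vertical axis, log2(RPKM + 1) scale) of Neto1 and the 8 hippocampal markers in the 3 comparisons, filled where the adjusted p in the authors' tables was below 0.05. In KO against Het all 8 markers lie below 0, from -0.73 to -0.29, with Neto1 at -0.89.

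An annotated antisense gene, AC113599.1, overlaps exons of Neto1 on the opposite strand in GENCODE M21. The library kit named in the labels does not mark strand, so reads from the antisense gene and from Neto1 cannot be told apart. Overlaps of exons with small RNA genes were annotated for Grik4 (Gm24420) and Neto2 (Mir8109), and none for Grik1, Grik2, Grik3 or Grik5.

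Summing RPKM, which is per length, estimates the makeup of the family's messenger RNA. The lengths come from an annotation that is not named, and other lengths would move the shares. The 5 receptor subunits summed to 131 RPKM in WT, 120 in Het and 134 in KO. Grik5 alone made up 58.7%, 59.2% and 60.3% of that sum in WT, Het and KO. The high-affinity genes Grik4 and Grik5 together made up 75.6%, 75.0% and 73.7%. Grik4 alone made up 17.0% in WT and 13.4% in KO, and Grik1 6.65% in WT and 4.20% in Het. Among the channel-forming genes, Grik1 made up 27.3% of the sum of Grik1, Grik2 and Grik3 in WT, 16.8% in Het and 22.0% in KO. Grik2 made up 52.7%, 58.8% and 55.7% of the same sum. These shares have no error and were not tested.

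The auxiliary genes differed more than the receptor sum. Neto1 and Neto2 together stood at 43.8 RPKM in WT, 63.5 in Het and 40.9 in KO. Per 100 RPKM of receptor subunits there were 33.5 RPKM of Neto genes in WT, 52.8 in Het and 30.5 in KO. The ratio of Neto1 to Neto2 was 1.47 in WT, 1.36 in Het and 0.893 in KO, so that Neto2 stood above Neto1 in KO only.

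**Figure D4:**
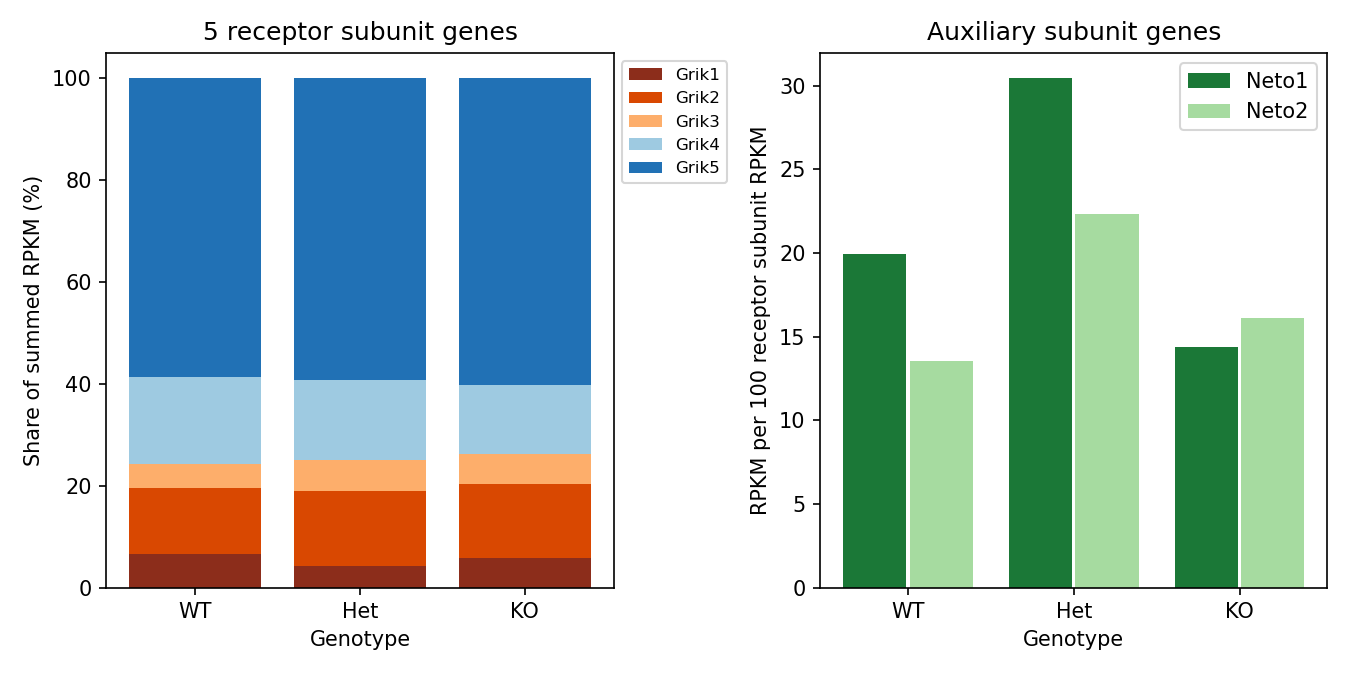
Left, the share (percent) of each receptor subunit gene in the summed RPKM of the 5, by genotype; right, Neto1 and Neto2 RPKM per 100 RPKM of receptor subunits. Grik5 holds 58.7% to 60.3% of the sum, Neto1 goes from 20.0 in WT to 30.4 in Het and 14.4 in KO, and Neto2 from 13.6 to 22.3 and 16.1.

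Among genes known to act with the receptors, 4 of 24 fell in KO. The list holds scaffolds, motors, modifying enzymes, RNA editing enzymes and synaptic organisers, all tested in each table. In KO against WT none of the 24 rose, and the median log2 fold was -0.03. The share of all tested genes that fell was 7.72%. In Het against WT the authors' test called 0 of the 24, with 1 at an unadjusted p below 0.05. In KO against Het it called 0 of the 24, with 4 at an unadjusted p below 0.05. Het and KO are therefore not shown to differ in these genes. Of all tested genes 9.13% were called in Het against WT and 1.92% in KO against Het. With 24 genes, counts of 0 beside these shares do not set the partners apart.

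The 4 that fell in KO have distinct roles. Nsf, the ATPase that takes apart membrane fusion complexes, went from 327 to 227 RPKM (log2 fold -0.53, adjusted p 0.00179 in the authors' deposited table). Prkca, a protein kinase C that phosphorylates receptor subunits, went from 34.4 to 25.4 RPKM (log2 fold -0.42, adjusted p 0.00323 in the authors' deposited table). C1ql3, a secreted C1q-like protein of the family that organises kainate receptors at synapses, went from 49.0 to 36.4 RPKM (log2 fold -0.42, adjusted p 0.00831 in the authors' deposited table). Adarb1, the RNA-editing deaminase ADAR2, went from 24.3 to 18.1 RPKM (log2 fold -0.40, adjusted p 0.0103 in the authors' deposited table). Editing itself cannot be read from RPKM values.

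Other partners, named after their values were seen, did not pass the test in any comparison. Klhl17, the actinfilin adaptor that targets GluK2 for degradation, was at 11.4 RPKM in WT, 11.6 in Het and 13.6 in KO. Its ubiquitin ligase scaffold Cul3 was at 58.6, 53.4 and 53.5 RPKM. C1ql2, which belongs also to the hippocampal list, was at 12.9, 13.1 and 10.4 RPKM. The scaffold Dlg4 (PSD-95) stood at 230, 226 and 232 RPKM.

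Set beside the other ionotropic glutamate receptor families, the kainate subunits held fewer falls in number than the NMDA subunits, a difference that was not tested. In Het against WT 1 of 5 kainate, 1 of 4 AMPA and 3 of 6 tested NMDA subunits fell, with median log2 folds of -0.10, -0.29 and -0.35. In KO against WT 0 of 5 kainate subunits were called, 1 of 4 AMPA subunits fell, and 1 of 6 NMDA subunits rose and 1 fell. Over all tested genes 9.13% were called in Het and 14.6% in KO against WT, and with so few members per family these counts set no family apart. Gria2, the AMPA subunit that limits calcium entry, fell from 155 to 117 RPKM in Het (the authors' deposited table: adjusted p 0.0417). It stood at 107 RPKM in KO (the authors' deposited table: adjusted p 0.00179). For 100 RPKM of AMPA subunits there were 31.9 RPKM of kainate subunits in WT, 37.4 in Het and 42.3 in KO.

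Grin3a and Grin2b, like Grik1, were lower in Het than in both WT and KO. Grin3a, an NMDA subunit of low calcium permeability, stood at 12.3 RPKM in WT, 8.47 in Het and 15.7 in KO. Its log2 fold in KO against Het was 0.82 (adjusted p 0.00517 in the authors' deposited table). Grin2b stood at 9.60, 5.60 and 8.02 RPKM, with 0.45 in KO against Het on the same scale (adjusted p 0.00517 in the authors' deposited table).

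**Figure D5:**
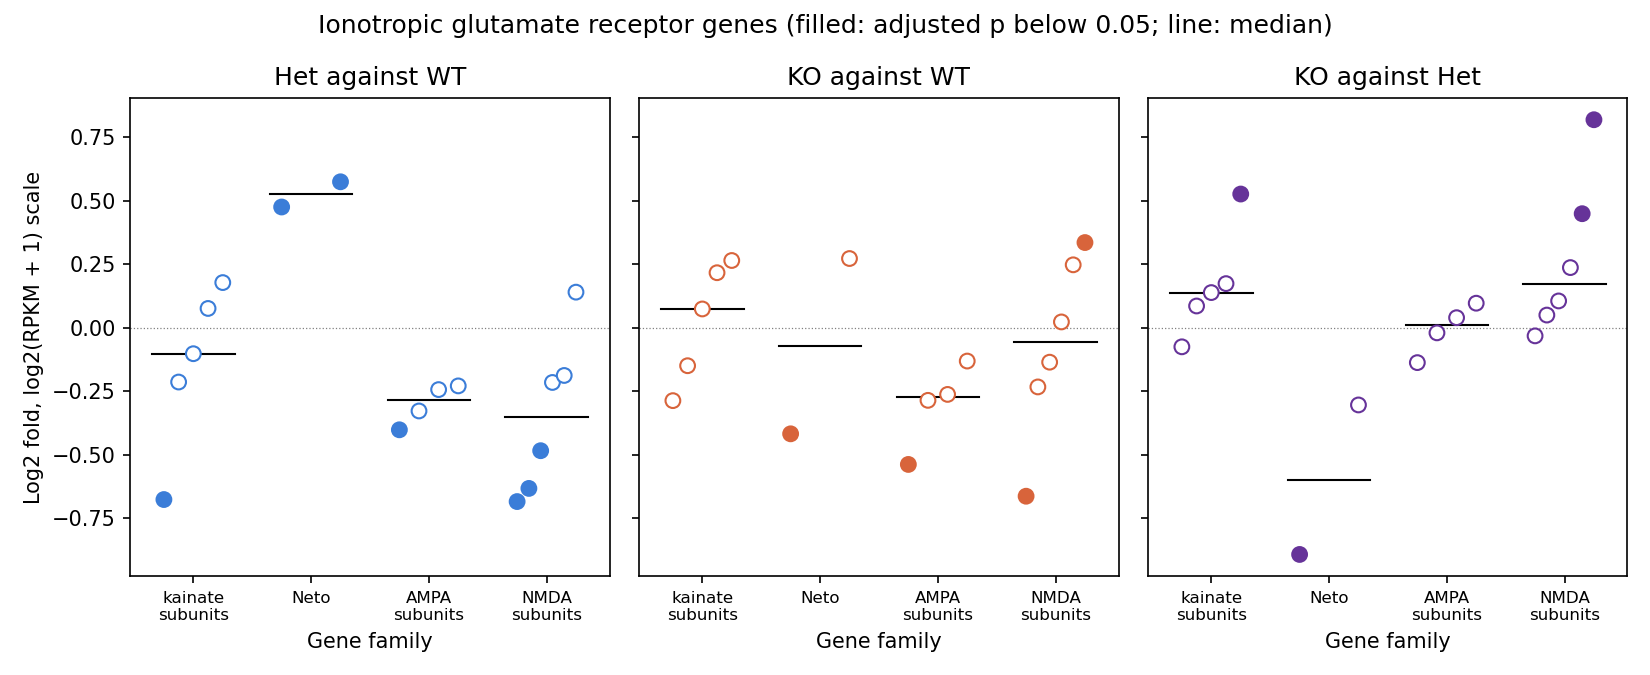
Log2 folds (vertical axis, log2(RPKM + 1) scale) of tested kainate, Neto, AMPA and NMDA genes in each comparison, filled where the adjusted p in the authors' tables was below 0.05, with a line at each family's median. All AMPA points lie below 0 in both comparisons with WT, while kainate points lie on both sides.

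The genes whose levels moved most like each called member were sought by the Euclidean distance between log2 folds of Het against WT and KO against WT, among genes of at least 1 RPKM in every genotype with the same calls in all 3 comparisons. Both comparisons share WT, so the distance rests on 3 pooled values per gene. For Grik1 the nearest was Nr2f2, a nuclear receptor transcription factor, at 6.73, 3.83 and 5.96 RPKM in WT, Het and KO (distance 0.004). Tenm4, a teneurin adhesion gene, and Akap12, an anchoring protein of protein kinase A, followed at 0.026 and 0.039. For Neto2 the nearest were Sertad4, the Rac regulator Chn2 and the transcription factor Sox8, at 0.011, 0.033 and 0.034. For Neto1 no more than 3 other genes met the calls: Cd109 at a distance of 0.034, the myelin lipid enzyme Ugt8a at 0.090 and the anoctamin Ano3 at 0.161. The order within these sets depends on the pseudocount. With a pseudocount of 0.1, Tenm4 was nearest to Grik1 at 0.022 and Nr2f2 at 0.030 was the last of the 3, Gpr83 took the place of Chn2 for Neto2, and for Neto1 Ugt8a was nearest at 0.088 and Cd109 the last at 0.186. At a pseudocount of 1 and disregarding calls, 8 genes lay within 0.1 of Grik1, 4 of Neto1 and 49 of Neto2, out of 12857.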

How the data were processed

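Titles gave each library's genotype. Per the submitters' processing notes, CASAVA 1.4, TopHat2 2.0.13, Cuffdiff 2.2.1 and build mm9 were used; the sources used here do not assign the tools to steps or name the annotation. The authors deposited 1 pooled RPKM value per genotype in each of 3 tables, per the file headers. The deposited p-value and adjusted p-value per gene come from the authors' own test, and no test of expression was run here. Genes with a p of 1 were treated as untested. Tested genes had at least 1 RPKM in either genotype. Folds used a pseudocount of 1 RPKM. WT and Het levels came from the Het against WT table and KO levels from the KO against WT table. Among the gene names, 27 had turned into dates and stayed in the counts of all genes.

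The members, lists and alternatives were chosen with earlier results of these data known. Named genes are all 7 members, up to 6 called genes per list by smallest adjusted p, and the 3 genes most like each called member. Interneuron, thalamic, hippocampal and partner genes beyond that rule were named after their values were seen. 3' UTRs came from GENCODE M21 (GRCm38) by gene name, covering 91.1% of genes of at least 1 RPKM in WT. The function used for adjustment over the 3 comparisons was checked on simulated p-values, and the site search on short made-up sequences with planted sites. Alternatives were pseudocounts of 0.1 and 0.01, minimums of 5 RPKM and none, an adjusted p of 0.01, an absolute log2 fold of 0.5, joint adjustment, recentred folds and the other table's values. Python 3.11.15, numpy 2.4.6, pandas 2.3.3 and matplotlib 3.10.9 were used.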

Additional observations from a re-analysis of the deposited data

Results flagged for a closer look

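Neto1 and Grik1 are listed here because the 2 mutant genotypes differed from each other by the authors' own test of KO against Het. Neto1 had a log2 fold of -0.89 in KO against Het (adjusted p 0.00517 in the authors' deposited table), after 0.48 in Het against WT and -0.42 in KO against WT. Grik1 had a log2 fold of 0.53 in KO against Het (adjusted p 0.0242 in the authors' deposited table), after -0.68 in Het against WT and -0.15 in KO against WT. Neither gene's levels followed the number of mutant alleles in a single direction. Each level is 1 pooled value, so the spread behind it cannot be shown.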

How the results depend on the processing

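Of the 7 genes, 1 was called in KO against WT, and 0 were called there at an adjusted p below 0.01, with an absolute log2 fold of at least 0.5, or with adjustment over the 3 comparisons, where Neto1 had an adjusted p of 0.0581. In Het against WT 2 of the 3 calls, Grik1 and Neto2, were left at an adjusted p below 0.01 and also with an absolute log2 fold of at least 0.5. In KO against Het 1 of the 2 calls, Neto1, was left at an adjusted p below 0.01. In KO against WT 1 of the 4 partner genes was left with an absolute log2 fold of at least 0.5. With the other tables' values the receptor subunits summed to 131, 121 and 134 RPKM in WT, Het and KO, and Grik4 and Grik5 made up 75.7%, 75.0% and 73.7%. Counting those in Het against WT, 25 alternative counts lay within 1.5 times the main count and 5 were lower. The 25 include the drops from 3 to 2 calls in Het against WT. They also include partner counts of 0, which a stricter threshold could not change. No log2 fold of a member changed sign under any pseudocount, recentring or choice of table. No paired analysis was possible because the tables hold 1 pooled value per genotype, and for the same reason no library could be left out. The unknown depth limits what can be said of levels near 1 RPKM.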
